A study of Mus musculus with 6 samples.

Results

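The BMP and TGF-beta family was measured in peritoneal macrophages of mice with ovarian tumors, as 7 of the 754 genes counted in each sample. The members are Bmp6 and every gene of the table whose symbol begins with Tgfb, Bmp, Smad or Inhb, namely the ligands Bmp6, Tgfb1 and Bmp8a, the co-receptor Tgfbr3, and Smad1, Smad2 and Smad7. No Inhb gene is among them. Bmp6 was chosen by its higher values in these same IRF5-NP samples, so its difference between the groups is given as a description without a test, while the other 6 members were taken by symbol alone. The NanoString nCounter assay, which counts color-coded probes hybridized to each transcript, was run on 6 samples, 3 per group. Both groups were adult C57BL/6J mice that carried ID8 tumors, a mouse ovarian cancer line grown in the peritoneal cavity, for 7 weeks before treatment. They received 2 intraperitoneal doses, on days 1 and 5, of PBS or of nanoparticles with 30 µg of mRNA for mouse IRF5 (IRF5-NPs), and cells positive for F4/80 and CD11b were then sorted from the lavage. The study's methods name a different dose, tumor age and coat-color strain for its ovarian cancer model, and a mixture of IRF5 and IKKβ mRNA in its particles, whereas the labels of these samples name IRF5 only. No nanoparticle with another mRNA is among these samples, so that effects of the particle and of its IRF5 message cannot be told apart.

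BMPs and TGF-betas are secreted dimers that bind pairs of serine/threonine kinase receptors. BMP receptors pass the signal to Smad1 and its relatives, TGF-beta receptors to Smad2 and Smad3, and these Smads then enter the nucleus with Smad4 and switch on genes that include the inhibitor Smad7 and the Id genes. TGF-beta1 is known as an immune suppressive factor in tumors and as a signal that maintains tissue macrophages, and BMP6 is best known as the inducer of the iron hormone hepcidin.

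The values are normalized counts, that is probe counts multiplied by 1 factor per sample that the authors derived from housekeeping genes. Before this scaling the samples held between 683472 and 1830318 counts, the fewest in IRF5-NP replicate 3, whose factor was 2.60 against 0.952 to 1.25 in the others. Background in a sample was taken from its 8 negative controls, as their mean with 2 SD added and scaled like the genes, which gave 79.4 normalized counts in IRF5-NP replicate 3 and 25.6 to 37.8 elsewhere. PBS replicates 2 and 3 differed by no more than the sampling noise of their counts, where chi-square over its degrees of freedom was 1.07 (p = 0.0782), against 158 or more for either of them with PBS replicate 1. They were counted as 1 sample, and means with PBS have n = 2 and means with IRF5-NPs n = 3. The labels do not say whether the samples came from separate mice, so p-values measure the spread between these samples, which may be technical.

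Bmp6, the only BMP ligand above background, was 3.75-fold more abundant after IRF5-NPs, whereas the log2 fold changes of the other members lay between -0.54 and 0.44. Of the 754 genes, 72 passed limma's moderated test at a Benjamini-Hochberg adjusted p of 0.05 (9.55%), 19 higher (2.52%) and 53 lower (7.03%), and of the 6 members other than Bmp6 0 passed. At an unadjusted p of 0.05 limma gave 1 of these 6, Smad7, and the methods' t-test gave 2 before and 0 after adjustment. The count of 0 was the same under all 17 alternative settings, with each sample left out in turn among them, but in 2 of these, the methods' t-test with either adjustment, none of the 754 genes passed. The median log2 fold change of the 6 members was -0.028, against -0.029 over all genes. With every sample shifted to a common median, which raised all changes by 0.24 on the log2 scale at the median, the panel split into 42 higher and 36 lower genes, and still none of the 6 members passed.

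**Figure D1:**
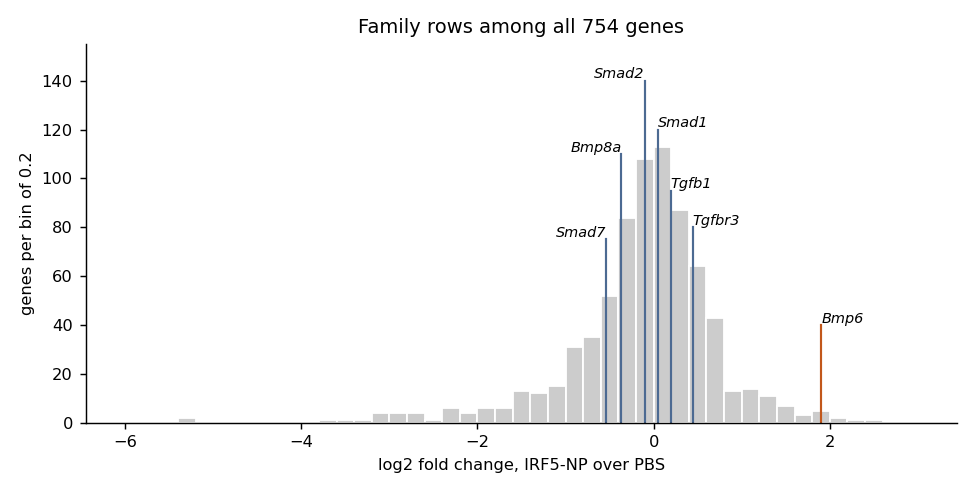
Histogram of the log2 fold change of IRF5-NPs over PBS for all 754 genes, in bins of 0.2, with vertical lines at the 7 family members; line heights only separate the names. Bmp6, at 1.91, stands in the right tail, and the other 6 lie between -0.54 and 0.44, in the bulk of the genes.

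Bmp6 had 81.9, 84.8 and 86.4 normalized counts in PBS replicates 1, 2 and 3, and 243, 402 and 325 in IRF5-NP replicates 1, 2 and 3. All 3 IRF5-NP samples lay above all 3 PBS samples, and IRF5-NP replicate 1 was the lowest of its group. The means were 83.8 ± 2.60 (SD, n = 2) and 323 ± 79.8 (SD, n = 3). The log2 fold change, a difference of mean log2 values, was 1.91, which is 3.75-fold. Only 6 of the 754 genes had a larger log2 fold change. Behind the PBS values stand 79, 82 and 69 counts, which is 2.16, 2.85 and 3.07 times the background of these samples. Exact 95% Poisson intervals, which cover counting error only, ran from 64.9 to 109 normalized counts over the PBS samples and from 214 to 446 over the IRF5-NP samples. The SD of 2.60 with PBS is narrower than these intervals and rests on 2 values. IRF5-NP replicate 3, the sample of lowest depth, gave 125 counts, the fewest of its group. The log2 fold change was 1.89 without that sample and 1.90 with all 6 samples counted separately, and it lay between 1.70 and 2.18 over the 12 alternative settings that give it a value.

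The promoters of the ligands above background are shown so that the gene that differed between the groups can be read beside the ligand whose groups overlapped. RefSeq (GRCm38.p6) gives the 250 bases before the start of Bmp6 at chr13:38345466-38345715 (+ strand) and of Tgfb1 at chr7:25686752-25687001 (+ strand). Capitals mark the single match found.

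Bmp6: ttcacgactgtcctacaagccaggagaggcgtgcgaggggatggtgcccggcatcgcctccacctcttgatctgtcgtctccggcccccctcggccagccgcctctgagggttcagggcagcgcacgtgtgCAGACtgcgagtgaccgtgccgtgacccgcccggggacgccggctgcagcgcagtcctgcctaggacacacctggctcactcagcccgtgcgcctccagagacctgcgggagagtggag

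Tgfb1: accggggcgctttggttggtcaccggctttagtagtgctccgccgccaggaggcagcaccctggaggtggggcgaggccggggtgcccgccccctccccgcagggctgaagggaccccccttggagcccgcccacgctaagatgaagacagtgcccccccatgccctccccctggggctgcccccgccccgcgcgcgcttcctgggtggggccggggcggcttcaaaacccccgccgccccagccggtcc

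Each was searched on both strands for GAAA followed by any 2 bases and GAAA again, the core of the interferon-stimulated response element that IRF proteins bind, for the Smad motifs GTCTAGAC and CAGAC, and for GGCGCC, a GC-rich motif bound by BMP-activated Smads, and none of these words contains another. The only match was CAGAC in the Bmp6 promoter, beginning 119 bases before the start. Over all 32851 promoter windows of this length, 42.2% hold CAGAC, 9.59% GGCGCC, 2.98% the paired GAAA and 0.167% GTCTAGAC, so that the match in Bmp6 is of a common kind. Both windows are rich in G and C, with 68.8% for Bmp6 and 75.2% for Tgfb1 against a median of 52.4%. A match in this window is not a binding site, and the absence of one says nothing about sites elsewhere.

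Tgfb1, the gene of TGF-beta1, had 3118, 2433 and 2336 normalized counts in PBS replicates 1 to 3 and 2504, 3442 and 3516 in IRF5-NP replicates 1 to 3. The groups overlapped, since IRF5-NP replicate 1 lay below PBS replicate 1. The means were 2751 ± 519 (SD, n = 2) and 3154 ± 564 (SD, n = 3), a log2 fold change of 0.19 ± 0.25 (SE), with an adjusted p of 0.711 by limma and a 95% interval from -0.39 to 0.78. Tgfb1 was counted deeply, with 1353 to 3122 counts per sample, so that counting error is small beside the spread between samples. Single samples moved its log2 fold change, to 0.39 if PBS replicate 1 was omitted and to 0.35, 0.12 and 0.11 if replicate 1, 2 or 3 of the IRF5-NP group was, and it reached 0.43 with a common median and 0.53 with quantile normalization (adjusted p = 0.0759 by limma). Bmp8a, another BMP ligand, lay below the background in every sample, with 8.57 to 23.8 normalized counts and 9 to 19 counts, and a difference was not detectable at this level.

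Tgfbr3, betaglycan, the co-receptor that presents TGF-beta to its receptors, had 152, 145 and 121 normalized counts with PBS and 205, 190 and 187 with IRF5-NPs. Every IRF5-NP sample was higher than every PBS sample. The log2 fold change was 0.44 ± 0.22 (SE), with an adjusted p of 0.266 by limma and a 95% interval from -0.068 to 0.95. In IRF5-NP replicate 3 its 72 counts were only 2.36 times the background. The kinase receptors of the pathway were not analysed here.

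The Smads that carry the signal were nearly level between the groups. Smad1, on the BMP side, had 501, 455 and 478 normalized counts with PBS and 426, 518 and 561 with IRF5-NPs, with overlapping groups and a log2 fold change of 0.045 ± 0.21 (SE), with an adjusted p of 0.926 by limma. Smad2, on the TGF-beta side, had 436, 443 and 443 with PBS and 364, 451 and 418 with IRF5-NPs. Its difference was -0.10 ± 0.20 (SE) on the log2 scale, with an adjusted p of 0.811 by limma. The 95% intervals ran from -0.45 to 0.54 for Smad1 and from -0.57 to 0.37 for Smad2, and the sign of the Smad2 difference turned with a common median (0.14) and with quantile normalization (0.064).

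Smad7, the inhibitory Smad that receptor signals induce and that shuts the receptors off, had 527, 459 and 512 normalized counts with PBS and 394, 338 and 314 with IRF5-NPs. All 3 IRF5-NP samples lay below all 3 PBS samples. The means were 506 ± 29.1 (SD, n = 2) and 349 ± 40.9 (SD, n = 3), a log2 fold change of -0.54 (SE 0.21, 95% interval -1.02 to -0.058), which did not pass after adjustment over all genes (adjusted p = 0.149 by limma). Over the alternative settings Smad7 did not pass, with an adjusted p of 0.0621 by limma when all 6 samples were counted separately and smaller changes of -0.30 with a common median (adjusted p = 0.381 by limma) and -0.35 with quantile normalization (adjusted p = 0.279 by limma). Smad7, Tgfbr3 and the chosen Bmp6 were the members whose groups did not overlap, and the same held for 282 of the 754 genes (37.4%), 128 higher (17%) and 154 lower (20.4%).

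**Figure D2:**
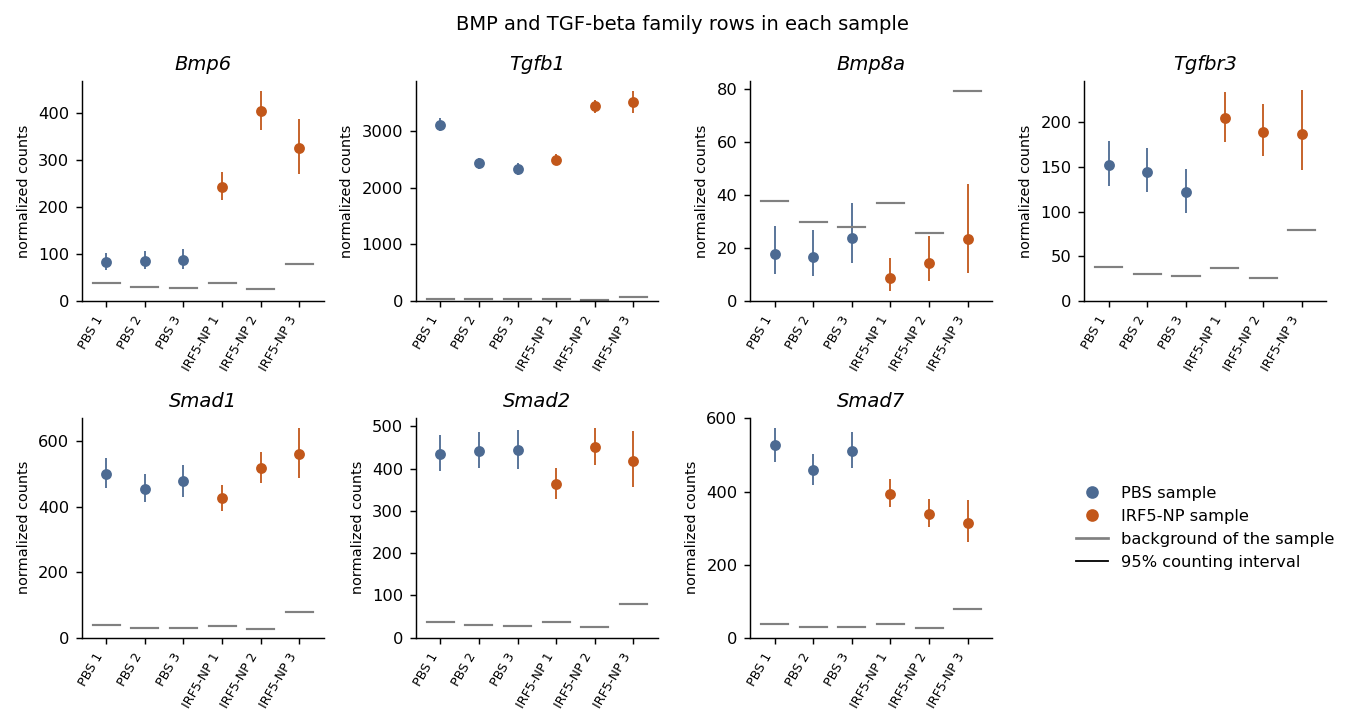
Normalized counts (linear axes from 0) of the 7 family members in each of the 6 samples, with exact 95% Poisson counting intervals as bars and the background of each sample as a grey line. Bmp6 separates the groups widely, Smad7 is lower and Tgfbr3 higher in all 3 IRF5-NP samples by smaller steps, and Bmp8a lies below the grey lines.

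Beyond the family, 16 genes on lists of TGF-beta and BMP targets, inhibitors and latency or activation factors were on the panel, and 3 of them passed, all lower, against 9.55% of all genes. Their median log2 fold change was -0.21, and 14 of the 16 were above background in all 6 samples. The lists were drawn up with earlier results of these data known. For its ovarian cancer model the study's methods describe ID8 cells transfected to express mouse VEGF. The part of tumor cells in the counts of Vegfa was not tested. Vegfa, an angiogenic growth factor and the target among the 3 genes that passed, had 2698, 2385 and 2377 normalized counts with PBS. With IRF5-NPs it had 1301, 1487 and 1528, and it fell by 0.82 ± 0.20 (SE), with an adjusted p of 0.0429 by limma. With 1 sample left out, it passed only when that was PBS replicate 2 or PBS replicate 3, and its change shrank to -0.48 with quantile normalization.

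Both other genes that passed belong to activation. Furin, the protease that cuts the precursors of TGF-beta and BMP ligands, had 3487, 3672 and 3605 normalized counts with PBS and 1652, 1974 and 2027 with IRF5-NPs, and fell by 0.92 ± 0.21 (SE), with an adjusted p of 0.0327 by limma. Plau, the urokinase whose product plasmin can release TGF-beta from its latent form, had 824, 839 and 764 with PBS and 358, 323 and 351 with IRF5-NPs, and fell by 1.24 ± 0.19 (SE), with an adjusted p of 0.00752 by limma. In both genes all IRF5-NP samples lay below all PBS samples, which held for 154 of the 754 genes (20.4%). Furin did not pass when PBS replicate 1 was left out, nor when replicate 2 or 3 of the IRF5-NP group was, and Plau did not pass without IRF5-NP replicate 3. The change of Furin shrank to -0.55 with quantile normalization. The number of the 16 genes past the threshold was 7 with 6 separate samples, 1 without PBS replicate 1, 1 without IRF5-NP replicate 2, 0 without IRF5-NP replicate 3, and 0 by the methods' t-test after adjustment.

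The list of targets held 13 measured genes, among them Smad7 of the family, Ski and Skil, which are also inhibitors, and Tgm2, which is also on the latency and activation list. Their median log2 fold change was -0.14, with values on both sides of 0. The Id genes, direct targets of BMP Smads that encode inhibitors of helix-loop-helix factors, did not pass. Id3 had 163, 141 and 133 normalized counts with PBS and 250, 212 and 208 with IRF5-NPs, and Id1 had 401, 460 and 406 with PBS and 508, 508 and 470 with IRF5-NPs. In both genes all IRF5-NP samples were above all PBS samples, which held for 17% of the 754 genes. The log2 fold changes were 0.57 for Id3 (adjusted p = 0.161 by limma) and 0.25 for Id1 (adjusted p = 0.503 by limma). Id2 overlapped between the groups, at -0.41 (adjusted p = 0.576 by limma), and was at -0.12 without PBS replicate 1 and -0.10 without IRF5-NP replicate 1. Fn1, the matrix protein fibronectin and the most abundantly counted of the 16, had 15752, 32947 and 31764 with PBS and 51654, 71276 and 64349 with IRF5-NPs. Its log2 fold change of 1.45 (SE 0.42) had a limma adjusted p of 0.0683, and without PBS replicate 1, which stood apart below the other PBS samples, it was 0.94. Fn1 passed in 4 of 18 settings. Cdkn1a, the cell cycle inhibitor p21, was at -0.84 (adjusted p = 0.0591 by limma), and Ctgf, a matrix-associated growth factor, at -0.27 (adjusted p = 0.650 by limma), and without PBS replicate 1 they were at -0.58 and -0.094. Without IRF5-NP replicate 1, Ctgf was at -0.52. Cdkn1a passed in 2 of 18 settings and Ctgf in 0. The inhibitors Ski and Skil had log2 fold changes of 0.21 and -0.14 and did not pass, and without PBS replicate 1 they were at 0.13 and 0.087, and Ski was at 0.14 without IRF5-NP replicate 3. Itgb1, an integrin chain and the most abundantly counted of the latency and activation genes, was at 0.73 (adjusted p = 0.216 by limma). Tgm2, a transglutaminase that helps to store latent TGF-beta in the matrix, was at -0.089 (adjusted p = 0.897 by limma), at -0.44 without PBS replicate 1 and at 0.081 without IRF5-NP replicate 1. Mmp9, a gelatinase that can activate TGF-beta, was at -1.51 (adjusted p = 0.221 by limma) and at -0.22 without PBS replicate 1, the sample in which it had 461 normalized counts against 47.4 to 99.0 in the others, and it was above background in 5 samples. Of a list of iron handling genes, only Cd163, the hemoglobin scavenger receptor, was analysed here. It was at 2310, 425 and 423 with PBS and 210, 206 and 210 with IRF5-NPs (adjusted p = 0.0579 by limma), with PBS replicate 1 far above the other samples. Cd163 passed in 2 of 18 settings.

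**Figure D3:**
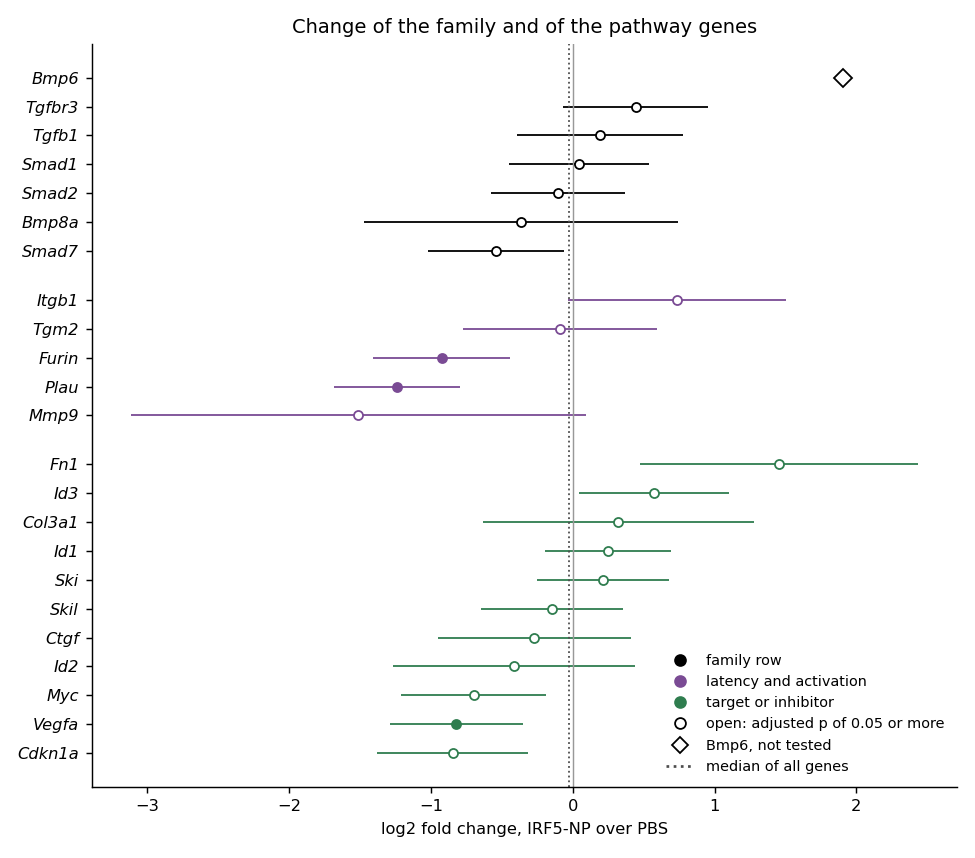
Log2 fold change of IRF5-NPs over PBS (points) with limma's 95% interval (bars) for the family and the 16 pathway genes, filled where the adjusted p is under 0.05; Bmp6 is shown without an interval because it was chosen for its difference. Bmp6, at 1.91, lies to the right of every other point, and the 3 filled points, Plau, Furin and Vegfa, lie between -1.24 and -0.82.

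**Figure D4:**
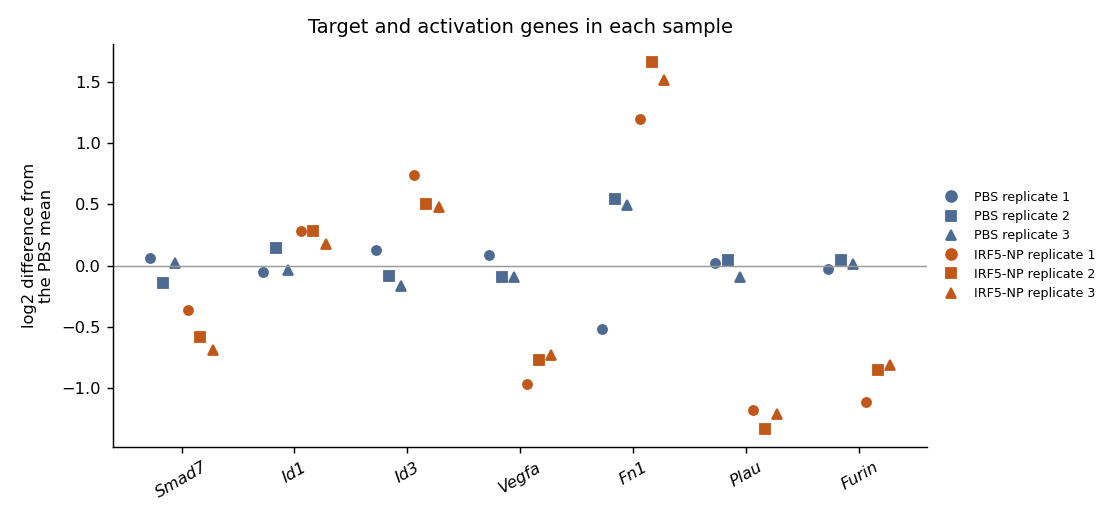
Log2 difference of each sample from the PBS mean for 7 target, inhibitor and activation genes, with a marker shape for each replicate number. Plau, Furin and Vegfa are lower in all 3 IRF5-NP samples than in the PBS samples, while Id1 and Id3 are slightly above the PBS samples and the PBS values of Fn1 spread by more than 1 log2 unit.

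Some markers of resident peritoneal macrophages were also higher after IRF5-NPs. In a bulk sample of sorted cells, a change in the share of a cell type and a change in RNA per cell cannot be told apart. Of the 19 genes on a list of these resident cells, 5 had values, and 3 of them rose, against 2.52% of all genes, Timd4 (log2 fold change 2.48, adjusted p = 0.0155 by limma), Cxcl13 (2.01, adjusted p = 0.0155 by limma) and Selp (2.19, adjusted p = 0.0423 by limma). Timd4 and Cxcl13 did not pass without PBS replicate 1 or IRF5-NP replicate 3, and Selp without PBS replicate 1 or any 1 of the IRF5-NP replicates. Gata6, the transcription factor that defines these cells, had 649, 951 and 944 normalized counts with PBS and 1112, 1983 and 2001 with IRF5-NPs (adjusted p = 0.0746 by limma), and Alox15, the most abundant of the 5, was at 1.61 (adjusted p = 0.0881 by limma). Gata6 passed in 4 of 18 settings and Alox15 in 1. Without PBS replicate 1 the log2 fold changes were smaller, 0.69 for Alox15 and 1.38 for Selp. All 5 were above background in every sample, and together they summed to 8104, 18005 and 17695 with PBS and to 27364, 49614 and 49891 with IRF5-NPs. Bmp6 shared with them the low position of IRF5-NP replicate 1, and, like Cxcl13, it lacked the gap between PBS replicate 1 and the other PBS samples that Timd4, Selp, Gata6 and Alox15 had.

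Within each sample, Bmp6 was also expressed relative to single markers. These ratios use the values by which Bmp6 was chosen and are given as a description. As a percentage of Gata6, Bmp6 was 12.6, 8.92 and 9.15 with PBS and 21.8, 20.3 and 16.2 with IRF5-NPs, without overlap. As a percentage of Adgre1, the gene of F4/80, it was 1.26, 0.928 and 0.954 with PBS and 2.77, 1.58 and 1.44 with IRF5-NPs, again without overlap. As a percentage of Timd4, in contrast, it was 65.8, 43.2 and 41.8 with PBS and 51.4, 34.0 and 25.7 with IRF5-NPs, and as a percentage of Cxcl13 it lay between 1.70 and 2.68 in all samples, both with overlapping groups. As a percentage of Itgam, the gene of CD11b, Bmp6 was 0.429 to 0.527 with PBS and 0.944 to 1.60 with IRF5-NPs, without overlap, while the percentages of Selp and Alox15 overlapped. The part of these markers in the difference of Bmp6 was not tested.

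**Figure D5:**
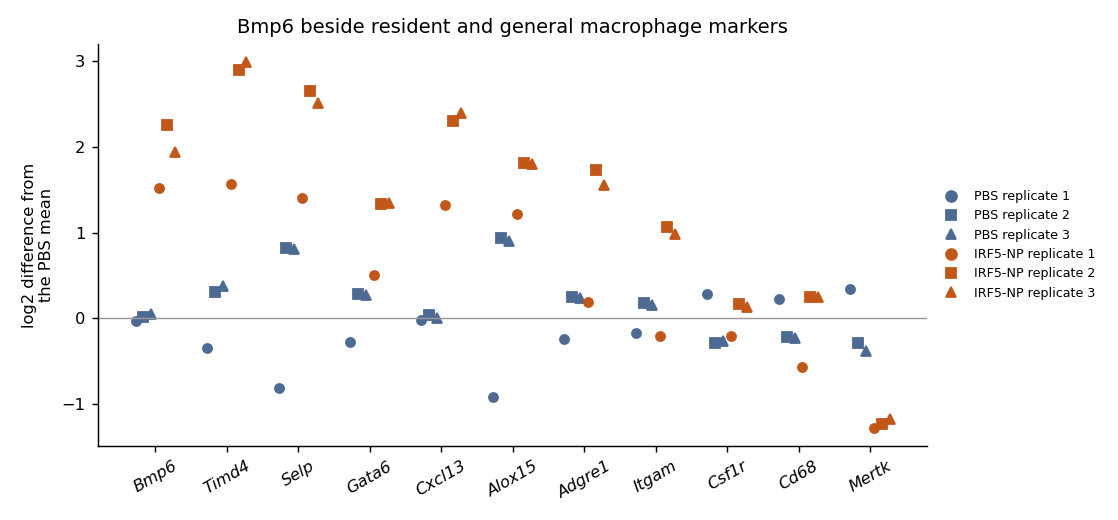
Log2 difference of each sample from the PBS mean for Bmp6, 5 resident macrophage markers and 5 general macrophage markers, with a marker shape for each replicate number. The IRF5-NP samples of Bmp6, Timd4, Selp, Cxcl13 and Alox15 lie above 1, those of Adgre1 and Itgam are split, with replicate 1 near the PBS samples, and those of Mertk lie near -1.2.

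Among the 499 genes whose mean over all samples exceeded the highest background, those most like Bmp6 were sought by the Pearson correlation of log2 values over the 5 samples as counted. A gene that separates the groups scores high by this measure alone, and so few samples allow no test. The closest were Ceacam1, an adhesion molecule (r = 0.995), S1pr1, the receptor for sphingosine-1-phosphate (r = 0.990), Sptbn1, a spectrin of the membrane skeleton (r = 0.987), Cxcl13, a B cell chemokine (r = 0.981), and Csf2ra, a GM-CSF receptor chain (r = 0.975). Ceacam1 had 360 ± 19.3 normalized counts for PBS and 904 ± 202 for IRF5-NPs (SD, n = 2 and n = 3), and Sptbn1 809 ± 71.7 and 1478 ± 89.6. The most opposite were the monocyte chemokines Ccl7 (r = -0.998) and Ccl2 (r = -0.992), the cytokine Tnf (r = -0.994), Plau (r = -0.985) and the MHC class II gene H2-Eb1 (r = -0.985). Tnf had 52.9 to 104 normalized counts after IRF5-NPs, of which replicate 3 lay below its own background, and it passed the filter on the mean through its PBS values of 253 to 330.

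Markers of the sorted cells and of other cells were read in the same samples. The label of the cells was borne out by Adgre1, Itgam, Csf1r and Cd68, all far above background in the 6 samples. Against 9.55% of all genes, of the 8 macrophage identity genes with values 1 passed, Mertk, a receptor for apoptotic cells, which fell by 1.23 on the log2 scale (adjusted p = 0.0218 by limma), and it passed with only 2 of the 6 samples left out in turn. Of 12 monocyte and small peritoneal macrophage genes, 6 passed, all lower, Chil3, Itgax, Cd74, H2-Aa, H2-Ab1 and H2-Eb1, and the list summed to 194634, 257654 and 252742 normalized counts with PBS against 40977, 38734 and 40663 with IRF5-NPs. Cd74, the invariant chain of MHC class II, was its most abundant gene. Platelets also carry TGF-beta1, and of their 2 markers with values Pf4 was at 11565, 3172 and 3268 with PBS and 7196, 12007 and 14705 with IRF5-NPs. PBS replicate 1 was the highest of its group for Pf4, Tgfb1 and the macrophage genes Csf1r and Cd68. The part of platelets in the Tgfb1 values was not tested. Pf4 passed in 0 of 18 settings, with log2 fold changes between 0.61 and 1.75. The other platelet marker, Selp, is also on the resident list.

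Endothelial cells and fibroblasts make BMPs and TGF-betas as well. Of 4 endothelial genes 0 passed, the most abundant was Flt1 with 65.3 to 156 normalized counts, above background in all 6 samples, Cdh5 was above background in 2 samples and Sele in 0. Of 4 fibroblast genes 0 passed, Pdgfra was the most abundant, and their sum was 94.4 to 182 normalized counts. The tumor and mesothelial list had a value for Cdh1 alone, which was lower (adjusted p = 0.0363 by limma), and as 2 of its 3 IRF5-NP samples lay below background no fold is given. Of 8 mast cell and basophil genes, 2 rose, against 2.52% of all genes, Hdc (1.86, adjusted p = 0.0218 by limma) and Cpa3 (adjusted p = 0.0327 by limma), and 3 of the 8 were below background in every sample. Cpa3 lay below background in all 3 PBS samples, at 8.30 to 15.5 normalized counts, and above it in 2 IRF5-NP samples, so that no fold is given. Of the rest of the list, Kit was lower and Cma1 higher under every setting that gave them a value, and neither passed. Fcer1a and Gata2 changed sign between settings, and Ms4a2 and Tpsb2 were not lower under any. Only 1 of the 8 genes, Hdc, was above background in all 6 samples. The list's median log2 fold change of 1.02 therefore includes genes at background and is not read as a change. Of 8 neutrophil genes 1 passed, against the same 9.55%, Csf3r, which was higher (0.88, adjusted p = 0.0459 by limma), and the list's median log2 fold change was -0.068. S100a8, its most abundant gene, was at -1.51 (adjusted p = 0.0767 by limma), and S100a9, above background in 5 samples, at -2.65 (adjusted p = 0.161 by limma). Without PBS replicate 1 these values were -0.75 and -1.37. S100a8 and S100a9 each passed in 1 of 18 settings. Ly6g exceeded background in 1 sample. Of 2 lymphocyte genes 1 passed, Ms4a1, which was higher (adjusted p = 0.0351 by limma), with all 3 PBS samples below background and 2 IRF5-NP samples above it, and of 6 eosinophil and 6 dendritic cell genes 0 passed. Irf5 itself, the gene whose message was delivered in a codon-altered form, was at 2573, 1991 and 1929 with PBS and 1960, 2358 and 2294 with IRF5-NPs (adjusted p = 0.947 by limma), and whether its probe detects the delivered form was not tested. The calls of Hdc, Cpa3, Csf3r, Cdh1 and Ms4a1 were lost without PBS replicate 1 and without IRF5-NP replicate 3, those of all but Hdc also without IRF5-NP replicate 2, and those of Cpa3, Cdh1 and Ms4a1 also without IRF5-NP replicate 1, while the 6 monocyte genes passed whichever sample was omitted. The part of any of these cells in the values of the family was not tested.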

How the data were processed

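Macrophages sorted for F4/80 and CD11b were measured in 3 PBS and 3 IRF5-NP samples, grouped by their labels. The deposited values are a signal, the nCounter counts of the Myeloid Innate Immunity Panel on a linear scale, which the authors checked with NanoStringQCPro and normalized to housekeeping genes in nSolver. These steps are described for their cultured macrophages, and no log2 was taken in this table. Control probes are raw counts. Whole multiples of 1 factor per sample, within 0.01, were found for all 754 genes and gave the counts used for depth and background.

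Log2 values with a pseudocount of 1 were fitted with limma 3.58.1 in R 4.3.3 (lmFit, eBayes with trend, two-sided), and p-values were adjusted over the 754 genes by Benjamini-Hochberg. PBS replicates 2 and 3 were averaged and counted as 1 sample. The script was tested on simulated data. Figures were drawn with matplotlib 3.10.9. Members, lists and tests were chosen with earlier results of these data known. The named genes are all members, pathway genes past the threshold or among the 4 with the highest mean of their list, the 5 genes most like and most opposite to Bmp6, and leading or changed markers. Id1, Id3, Ctgf, Mmp9 and the markers S100a9, Gata6, Adgre1, Csf1r and Cd68 were named in addition, after their values were seen. One pathway gene is not reported here and was left out of the lists.

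Same-numbered samples deviated together with correlations of 0.158, 0.178 and 0.0953 across 482 genes, and the labels give no reason for pairing, so that the numbers were not taken as pairs.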

Additional observations from a re-analysis of the deposited data

How the results depend on the processing

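The family count of 0 and the sign of Tgfb1, Tgfbr3 and Smad7 held under every alternative that gives them a value, although the methods' t-test, which called no gene, could not have given another count, and 6 members were above background by each of the 3 definitions tried. Smad2 turned to 0.14 with a common median and 0.064 with quantile normalization, and Smad1 to -0.040 without IRF5-NP replicate 3, in a range of -0.040 to 0.16 with each sample left out.

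The other counts moved. Against 72 panel genes (19 higher, 53 lower) and 3 pathway genes, 6 separate samples gave 121 (37, 84) and 7. The replicate block, by number in 6 separate samples, gave 135 (52, 83) and 5, with each sample correlating best with its own number, which is a hint from the data only. Background subtraction gave 25 (4, 21), a prior without trend 41 (8, 33) and 1, and Benjamini-Yekutieli adjustment 21 (2, 19) and 0. The methods' t-test gave 0 (0, 0) and 0 by either adjustment, with 125 genes at an unadjusted p of 0.05 against 191 by limma. Higher genes numbered 42 with a common median and 35 with quantile normalization. With each sample left out, the counts ranged from 21 to 83 (2 to 24, 19 to 59) and from 0 to 3, the lowest without IRF5-NP replicate 3, with 35 genes if PBS replicate 1 was omitted, 41 if IRF5-NP replicate 2 was, and 34 lower genes without IRF5-NP replicate 1. Without PBS replicate 1 or an IRF5-NP replicate these fits have 4 samples in place of 5, and where 1 PBS sample remained its spread was taken from the IRF5-NP group. For the other settings the cause was not tested. The planned tests on the recovered counts were not run. A second estimate of the value of 1 count, started from the smallest value, made 95.9% to 97.6% of the low values whole in the PBS samples but 14.2% to 34.9% in the IRF5-NP samples (within 0.1 of a count, control probes included), so the counts and counting intervals given rest on the first estimate. Bmp8a was not measured above background in any sample.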
